A study of Mus musculus with 10 samples.

Results

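Described here are 34 genes of the p53 pathway and the DNA damage checkpoint in mouse T cells given cytokine mRNA. They were taken from a list of gene symbols that holds p53 itself, its regulators, its target genes and the checkpoint kinases, and each symbol matched 1 of the 55359 gene identifiers in the count table. All 34 passed the filter on low counts that left 15777 tested genes. The series is bulk RNA sequencing of pmel-1 lymphocytes, spleen T cells with a transgenic receptor for gp100, an antigen of melanoma. Cells were activated with hgp100 peptide for 48 h, kept with hIL-2 for another 48 h, electroporated and lysed for RNA after a further 24 h. There are 5 groups of 2 libraries. DRIL18 received mRNA for decoy-resistant IL-18, a form of the cytokine that its natural inhibitor does not bind. IL12 received mRNA for single-chain IL-12, and the mixture received both mRNAs. Mock was electroporated without a cytokine mRNA named in the labels, and the sources used here do not give what it received. NoEp was not electroporated and is labelled WT, and no time from the IL-2 culture to lysis was recorded for it here. The peptide and IL-2 culture is shared by all 5 groups, and all cells come from pmel-1 spleens, so no group is unstimulated or free of the transgene. The labels call the libraries biological replicates without naming separate animals, so each p-value reflects only how far these samples spread.

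The p53 protein is a transcription factor that cells hold at a low level through Mdm2, a ubiquitin ligase that marks it for destruction and whose own gene p53 activates. When DNA breaks or replication stalls, the kinases ATM and ATR signal through CHK2 and CHK1, p53 is modified and accumulates, and its target genes stop the cell cycle, repair DNA or start cell death. In activated T cells, which divide fast, the pathway limits expansion and the p53 targets p21 and Fas restrain or remove dividing cells.

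The DNA that p53 binds is a pair of copies of a 10-base sub-site, and the windows around the gene starts were searched for it to show what these genes carry. The search used the p53 response element consensus by name: each of the pair has purines, then a C, a pair of A or T letters and a G, then pyrimidines. The consensus is its own reverse complement, so 1 search covers both strands, and no other motif was searched. A match needed the C and the G in both copies, no gap between them, and at least 17 of 20 matching positions. Windows run from 250 bases before to 50 bases after each annotated start (RefSeq, build GRCm38.p6). Of the 34 genes, 27 have a window in this table, with 33 windows between them. A match is held by 8 of these 33 windows, in 7 genes, while 1.38% of all 32851 windows hold one. The list names p53 target genes, so these shares do not test whether such sites are enriched. Capitals below mark the positions that match the consensus.
Cdkn1a, plus strand, chr17:29090928-29090947: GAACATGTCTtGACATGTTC
Ccng1, minus strand, chr11:40755462-40755481: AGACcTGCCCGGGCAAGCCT
Gtse1, plus strand, chr15:85859945-85859964: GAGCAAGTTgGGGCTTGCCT
Ckap2, minus strand, chr8:22186003-22186022: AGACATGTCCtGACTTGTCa
Aen, plus strand, chr7:78895937-78895956: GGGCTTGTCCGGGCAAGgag
Sesn1, plus strand, chr10:41887266-41887285: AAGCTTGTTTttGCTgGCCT
Trp53, plus strand, chr11:69580284-69580303: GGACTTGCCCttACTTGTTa
The Cdkn1a, Ccng1 and Gtse1 matches have 19 of 20 consensus positions, a score that 0.067% of all windows reach. The Cdkn1a match lies 51 to 32 bases before the upstream one of its 2 annotated starts, which are 2790 bases apart. A match of letters is a description of the window, and binding was not measured in this series. The 250 bases before the start are shown for Cdkn1a and Ccng1, the pair with the strongest matches upstream of a start, with the match in capitals.
Cdkn1a, plus strand, chr17:29090729-29090978: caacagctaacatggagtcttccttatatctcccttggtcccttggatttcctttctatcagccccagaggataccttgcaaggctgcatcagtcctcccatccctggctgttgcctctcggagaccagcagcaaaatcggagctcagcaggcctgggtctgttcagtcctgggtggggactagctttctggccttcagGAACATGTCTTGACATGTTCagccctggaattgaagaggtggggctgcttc
Ccng1, minus strand, chr11:40755287-40755536: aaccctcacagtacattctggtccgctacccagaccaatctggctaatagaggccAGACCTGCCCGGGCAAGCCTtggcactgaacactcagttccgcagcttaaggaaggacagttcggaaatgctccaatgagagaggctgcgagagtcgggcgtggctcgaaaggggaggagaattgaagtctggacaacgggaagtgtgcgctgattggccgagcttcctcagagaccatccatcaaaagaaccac
Of the 7 genes with a match, Cdkn1a, Ccng1, Gtse1, Aen and Trp53 were higher in the mixture than in Mock, and Ckap2 and Sesn1 were lower, with values given below.

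The 10 libraries hold 31281944 to 35062545 counts, a narrow range, so no group is measured at a much lower depth. Summed over 4 CD8 T cell markers (Cd3e, Cd8a, Cd8b1, Thy1), the libraries hold 2937 to 2967 CPM (counts scaled to 1000000 per library) with DRIL18, 2546 to 2633 CPM with IL12 and 2268 to 2299 CPM in the mixture, against 3168 to 3212 CPM in Mock and 3206 to 3371 CPM in NoEp. All 4 markers were lower in the mixture than in Mock and all 4 were lower with IL12. Markers of other cells were low. Summed B cell markers lay between 13 and 23.4 CPM over all libraries, and CD4, NK and erythroid markers between 5.11 and 7.47 CPM. The 6 myeloid and dendritic markers held 3.45 to 3.81 CPM with DRIL18, 21 to 21.5 CPM with IL12 and 8.12 to 8.48 CPM in the mixture, against 5.18 to 6.51 CPM in Mock and 7.1 to 7.44 CPM in NoEp. Xcr1, a chemokine receptor gene, carried most of that list with IL12 (20.6 CPM in both libraries). Csf1r, Adgre1, Klrb1c, Hbb-bs and Hba-a1 were at or near 0 in all 10 libraries. Fewer cells of a type and less RNA per cell cannot be told apart in such bulk samples, and the part that a change in cell makeup has in the results below was not tested. A mark in the column names, bis, is carried by both mixture libraries, both NoEp libraries, DRIL18 replicate 2 and IL12 replicate 2, and by no Mock library. What it stands for is not stated in the labels. Annotated genes on the other strand overlap small stretches of the exons of Cdkn1a (7.68% of bases), Plk3 (3.32%), Ei24 (6.66%), Rrm2b (8.04%) and Atr (3.07%), and larger ones of Rap2b, Ddb2 and Trp53bp1, as given with those genes.

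Most of the 34 genes differed between the mixture and Mock, and more than 2 in 3 of those that did were higher. Higher were 22 of 34 (64.7%), against 32% of all tested genes, and lower were 9 (26.5%), against 31.9% of all tested genes. At least 2-fold higher were 13 of 34, or 38.2%, against 9.13% of all tested genes, and at least 2-fold lower were 3, against 10.7% of all tested genes. Eda2r is among the 22 and the 13. It passed the filter on low counts through the mixture and DRIL18 libraries, where it is highest, so its inclusion is no separate support for a rise there. The median log2 fold change was 0.62 over the 34 genes and -0.0021 over all tested genes. Rap2b, Rrm2b and Chek1 did not pass. DRIL18 had 16 members higher, Eda2r among them, and 4 lower than Mock, against 12.2% and 12.1% of all tested genes, with a median of 0.12. The count of lower members was 2 without DRIL18 replicate 2, Mock replicate 1 or Mock replicate 2, and 2 with DESeq2 or with the mark bis as a covariate. With IL12, 14 members were higher and 12 lower, against 23% and 23.6% of all tested genes, with a median of 0.035. The 3 comparisons share the Mock libraries, so they are not independent of each other. All tests are edgeR's quasi-likelihood F test with Benjamini-Hochberg adjustment over all tested genes, with a call at an adjusted p under 0.05. Counts of members are for libraries scaled to a common size by TMM. The 34 genes were chosen with earlier results of these data known, so their shares describe the list and are no independent test.

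**Figure D1:**
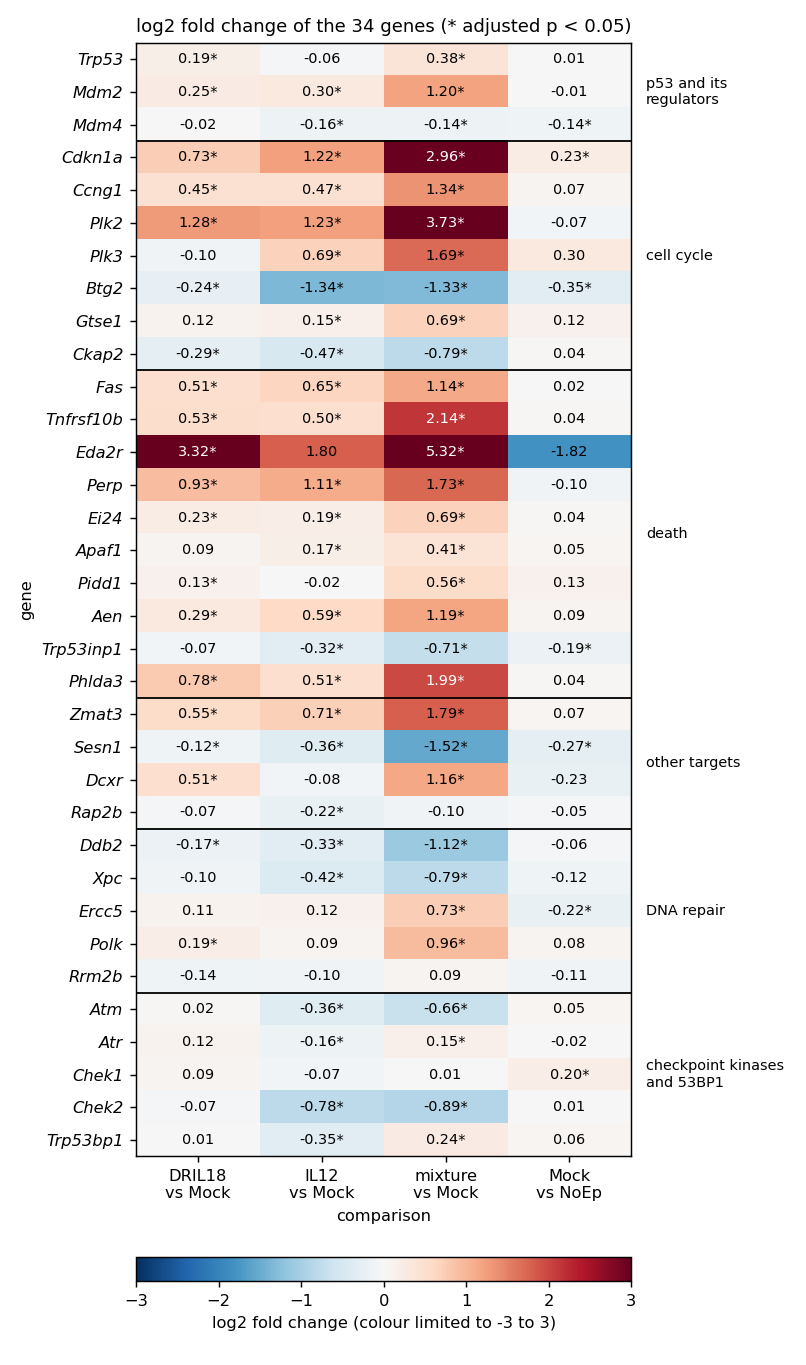
Each cell gives the log2 fold change of 1 of the 34 genes (rows, ordered by role) in 1 comparison (columns), with an asterisk where the adjusted p is under 0.05; colour is limited to -3 to 3. The mixture column holds 22 higher and 9 lower genes, and the Mock against NoEp column 2 higher and 5 lower.

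In all 3 cytokine arms 11 genes were higher than in Mock: Mdm2, Cdkn1a, Ccng1, Plk2, Fas, Tnfrsf10b, Perp, Ei24, Aen, Phlda3 and Zmat3. These are 32.4% of the 34, against 6.97% of all tested genes. Btg2, Ckap2, Sesn1 and Ddb2 were lower in all 3 (11.8%, against 7.31% of all tested genes). The DRIL18 calls of Sesn1 and Ddb2 were each lost under several alternatives given below, so this share is not stable. Among the 11 higher genes, the DRIL18 call of Perp and the IL12 call of Ei24 were lost when single libraries were left out. Trp53, Eda2r, Pidd1, Dcxr and Polk were higher with DRIL18 and in the mixture and did not pass with IL12, while Plk3, Gtse1 and Apaf1 were higher with IL12 and in the mixture and did not pass with DRIL18. Mdm4, Trp53inp1, Xpc, Atm and Chek2 were lower with IL12 and in the mixture and did not pass with DRIL18. Atr and Trp53bp1 were lower with IL12 and higher in the mixture. DRIL18 was not tested against IL12, so passing in 1 single arm and not the other does not show that the arms differ. Gtse1, for example, had 0.15 with IL12 (adjusted p = 0.00867) and 0.12 with DRIL18 (adjusted p = 0.0582), and Apaf1 had 0.17 and 0.091.

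Trp53 (ENSMUSG00000059552), the gene of p53 itself, had 247 and 254 CPM with DRIL18, 216 and 204 CPM with IL12 and 285 and 288 CPM in the mixture, against 215 and 225 CPM in Mock and 219.8 and 216 CPM in NoEp. The mixture libraries were the highest and those of IL12 overlapped Mock. Trp53 was 1.3-fold higher in the mixture than in Mock (log2 fold change 0.38 ± 0.038 SE, adjusted p = 2.6e-10) and rose less with DRIL18 (0.19, adjusted p = 0.000378). With IL12 its difference was -0.064, adjusted p = 0.181. A processed copy of the gene, Trp53-ps, had 61 counts in all 10 libraries together, so few reads were assigned to it. Mdm2 (ENSMUSG00000020184), the ligase gene that p53 activates and whose product degrades p53, had 119 and 116 CPM with DRIL18, 126 and 117 CPM with IL12 and 224 and 230.1 CPM in the mixture, against 97.6 and 100.4 CPM in Mock and 101 and 97.5 CPM in NoEp. Both mixture libraries lay far above the other 8, and the single-mRNA libraries lay between them and Mock without overlap. Mdm2 was 2.29-fold higher in the mixture (1.20 ± 0.042 SE, adjusted p = 2.45e-21), with differences of 0.25, adjusted p = 4.51e-05, for DRIL18 and 0.30, adjusted p = 1.11e-06, for IL12. Mdm4, whose product holds p53 inactive without degrading it, was the regulator that fell, by 0.14 on the log2 scale in the mixture (adjusted p = 0.00276) and by 0.16 with IL12 (adjusted p = 0.00216); the IL12 call was lost without IL12 replicate 1 (-0.11, adjusted p = 0.0604).

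Among the members that act on the cell cycle, 5 of 7 (71.4%) were higher and 2 (28.6%) lower in the mixture than in Mock, against 32% and 31.9% of all tested genes. Cdkn1a (ENSMUSG00000023067) encodes p21, the inhibitor of cyclin-dependent kinases through which p53 stops the cycle. It had 99.8 and 105 CPM with DRIL18, 159 and 129 CPM with IL12 and 480.2 and 476 CPM in the mixture, against 63.7 and 59.6 CPM in Mock and 56.7 and 48.8 CPM in NoEp. All 6 cytokine libraries were above Mock, and the mixture pair stood far above the singles. Cdkn1a was 7.76-fold higher in the mixture (2.96 ± 0.064 SE, adjusted p = 1.02e-26), 2.33-fold with IL12 (1.22, adjusted p = 2.92e-16) and 1.66-fold with DRIL18 (0.73, adjusted p = 4.31e-10). Ccng1 (ENSMUSG00000020326), the cyclin G1 gene, had 420.1 and 449.9 CPM with DRIL18, 469 and 408 CPM with IL12 and 794 and 809 CPM in the mixture, against 314 and 321 CPM in Mock and 311 and 293 CPM in NoEp. Its 6 cytokine libraries were above all control libraries, with a log2 fold change of 1.34 ± 0.047 SE, adjusted p = 2.19e-21, in the mixture. DRIL18 and IL12 differed from Mock by 0.45 and 0.47 on the log2 scale, about equally.

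Plk2 and Plk3 are stress-responsive polo-like kinases. Plk2 (ENSMUSG00000021701) had 3.92 and 5.31 CPM with DRIL18, 4.48 and 4.47 CPM with IL12 and 27.6 and 22.8 CPM in the mixture, against 1.84 and 1.96 CPM in Mock and 2.35 and 1.67 CPM in NoEp. Its level was low in every group but the mixture, where it was 13.2-fold higher than in Mock (3.73 ± 0.15 SE, adjusted p = 1.67e-19), and it rose with DRIL18 (1.28, adjusted p = 3.85e-06) and IL12 (1.23, adjusted p = 2.64e-06). Plk3 had 7.3 and 8.34 CPM with DRIL18, 13.4 and 13.6 CPM with IL12 and 25.9 and 28.2 CPM in the mixture, against 8.12 and 8.6 CPM in Mock and 7 and 6.62 CPM in NoEp. The DRIL18 libraries lay around the Mock level (-0.10, adjusted p = 0.586), while IL12 (0.69, adjusted p = 1.11e-06) and the mixture (1.69 ± 0.094 SE, adjusted p = 2.45e-16) were higher. Gtse1, whose product binds p53 in the G2 phase and shuttles it out of the nucleus, had 117 and 122 CPM with DRIL18, 129 and 116 CPM with IL12 and 179.8 and 176 CPM in the mixture, against 112 and 109 CPM in Mock and 102 and 102 CPM in NoEp. The mixture pair stood clear of the other 8 libraries, at 0.69 ± 0.044 SE, adjusted p = 1.2e-14, above Mock. The smaller rise with IL12 (0.15, adjusted p = 0.00867) was lost without IL12 replicate 1 (0.07, adjusted p = 0.283) or without Mock replicate 2 (0.14, adjusted p = 0.0662), and was 0.22 without IL12 replicate 2.

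Btg2 and Ckap2 went the other way. Btg2 (ENSMUSG00000020423), an antiproliferative p53 target, had 89.4 and 88.2 CPM with DRIL18, 44.3 and 39 CPM with IL12 and 42 and 41.4 CPM in the mixture, against 104 and 106 CPM in Mock and 136 and 132 CPM in NoEp. IL12 and mixture libraries lay together well below the Mock level, with -1.33 ± 0.051 SE, adjusted p = 2.28e-20, in the mixture and -1.34, adjusted p = 9.11e-20, with IL12. The fall with DRIL18 was smaller (-0.24, adjusted p = 0.000214). Ckap2, a mitotic spindle protein gene, had 73.3 and 71.1 CPM with DRIL18, 62.8 and 64.7 CPM with IL12 and 52 and 50.5 CPM in the mixture, against 87.3 and 89.4 CPM in Mock and 83 and 88.5 CPM in NoEp. It was lower in each cytokine arm, with -0.79, adjusted p = 4.32e-15, in the mixture, -0.47 with IL12 and -0.29 with DRIL18.

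**Figure D2:**
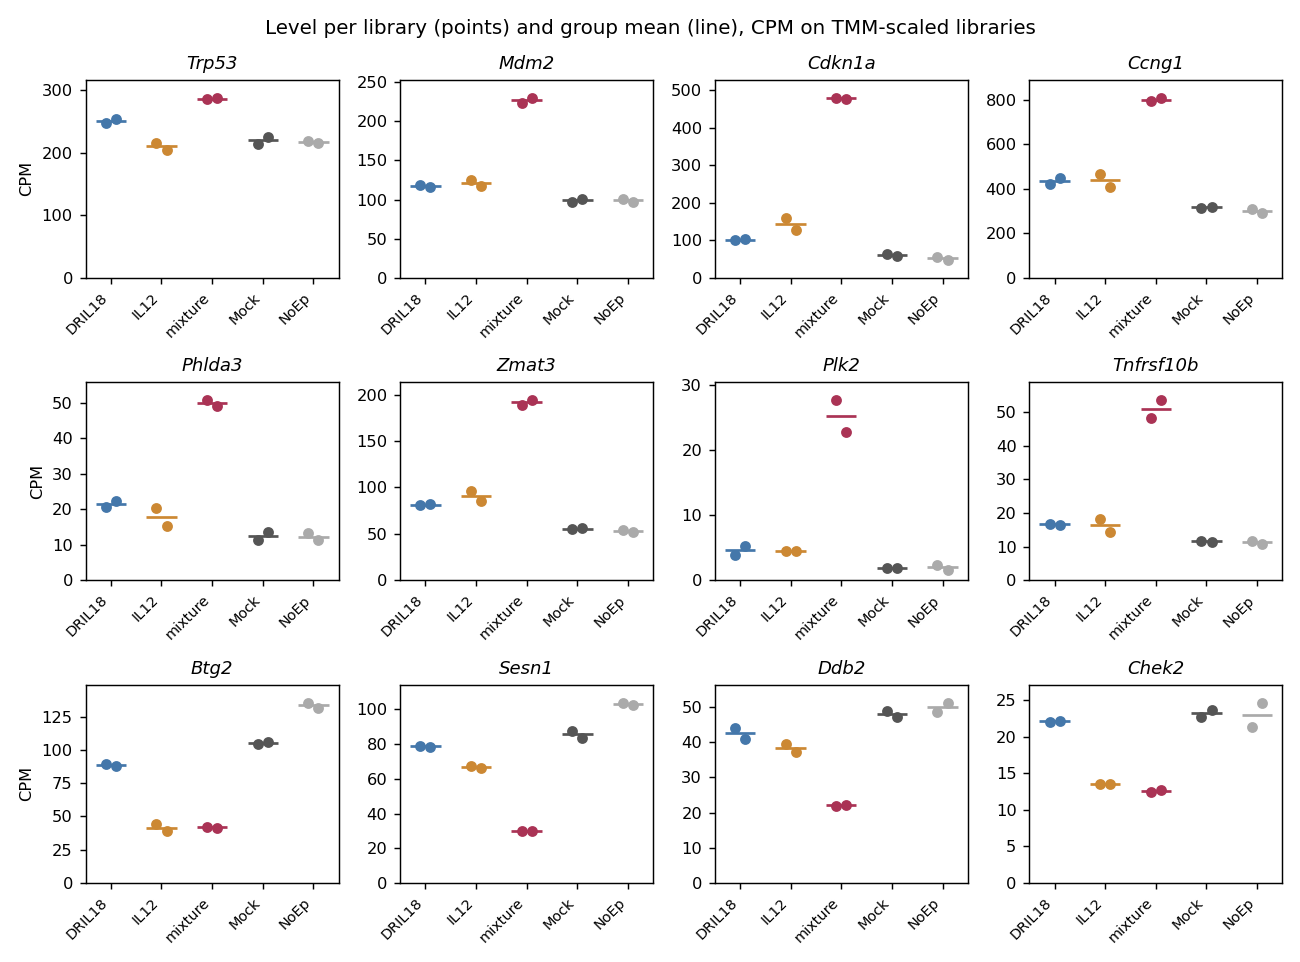
Levels in CPM (y axes, linear from 0) of 12 of the 34 genes in each library (points) of the 5 groups (x axes), with the group mean as a line. In the upper 8 panels the mixture libraries are the highest, and in Sesn1 and Ddb2 they are the lowest; in Btg2 and Chek2 the IL12 and mixture libraries lie together below the others.

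Of the 10 genes of cell death, 9 (90%) were higher and 1 (10%) was lower in the mixture than in Mock, against 32% and 31.9% of all tested genes. The 9 include Eda2r, which passed the filter on low counts through the groups where it is highest. Fas (ENSMUSG00000024778), the receptor through which activated T cells are removed, had 27.8 and 31.7 CPM with DRIL18, 34.4 and 30.8 CPM with IL12 and 46.4 and 45.2 CPM in the mixture, against 21.1 and 20.6 CPM in Mock and 20.2 and 20.9 CPM in NoEp. The mixture was 2.2-fold higher than Mock (1.14 ± 0.071 SE, adjusted p = 4.7e-15), DRIL18 1.43-fold (0.51, adjusted p = 2.95e-06) and IL12 1.57-fold (0.65, adjusted p = 1.13e-08), with no cytokine library overlapping Mock. Tnfrsf10b (ENSMUSG00000022074), the receptor for the death ligand TRAIL, had 16.8 and 16.4 CPM with DRIL18, 18.1 and 14.5 CPM with IL12 and 48.1 and 53.5 CPM in the mixture, against 11.6 and 11.5 CPM in Mock and 11.7 and 10.8 CPM in NoEp. The mixture pair was far above the singles (2.14 ± 0.086 SE, adjusted p = 9.09e-20), and DRIL18 (0.53, adjusted p = 9.09e-05) and IL12 (0.50, adjusted p = 8.37e-05) were higher than Mock by similar amounts. Without IL12 replicate 1 the IL12 value was 0.33.

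Eda2r, the receptor for an ectodysplasin isoform, was barely detected outside the mixture. It passed the filter on low counts through the mixture and DRIL18 libraries, where it is highest. Its reads numbered 128 in the mixture, 32 with DRIL18 and 10 with IL12, against 3 in Mock and 11 in NoEp, each summed over both libraries of the group. Per library the levels were 0.346 and 0.589 CPM with DRIL18, 0.196 and 0.126 CPM with IL12 and 2.22 and 1.54 CPM in the mixture, against 0.0283 and 0.0595 CPM in Mock and 0.188 and 0.139 CPM in NoEp. The ratio of the mixture to Mock was 43.28 (95% interval from counting alone 14.48 to 212.6) and that of DRIL18 to Mock 10.72 (3.355 to 54.73). That of IL12 to Mock was 3.683, with an interval that spans 1 (0.9484 to 20.83). Against DRIL18, which has more reads than Mock, the mixture ratio was 4.036 (2.722 to 6.147). Fitted adjusted p-values were 7.18e-09 for the mixture and 0.00107 for DRIL18 against Mock, and DESeq2 gave none for the second.

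Perp, a membrane protein of p53-dependent death and cell junctions, had 3.17 and 3.3 CPM with DRIL18, 3.56 and 3.77 CPM with IL12 and 5.37 and 5.93 CPM in the mixture, against 1.42 and 1.99 CPM in Mock and 2.2 and 1.48 CPM in NoEp. It was low throughout, and all cytokine libraries lay above Mock, at 1.73 ± 0.20 SE, adjusted p = 7.34e-09, in the mixture, 1.11, adjusted p = 6.97e-05, with IL12 and 0.93, adjusted p = 0.00147, with DRIL18. The DRIL18 call was lost without Mock replicate 1 (0.70, adjusted p = 0.0633). Phlda3 (ENSMUSG00000041801), a p53 target that inhibits the survival kinase AKT, had 20.7 and 22.4 CPM with DRIL18, 20.5 and 15.4 CPM with IL12 and 50.7 and 49 CPM in the mixture, against 11.4 and 13.7 CPM in Mock and 13.3 and 11.2 CPM in NoEp. The mixture pair was the highest (1.99 ± 0.10 SE, adjusted p = 9.01e-18), and DRIL18 (0.78, adjusted p = 7.97e-07) and IL12 (0.51, adjusted p = 0.000184) were above Mock without overlap. The IL12 value was 0.30 without IL12 replicate 1. Aen (ENSMUSG00000030609), an apoptosis-enhancing nuclease gene, had 69.8 and 72 CPM with DRIL18, 91 and 82.9 CPM with IL12 and 127 and 137 CPM in the mixture, against 58.2 and 57.5 CPM in Mock and 56.7 and 52.3 CPM in NoEp. Its order was the mixture (1.19 ± 0.052 SE, adjusted p = 7.15e-19), IL12 (0.59, adjusted p = 1.17e-10) and DRIL18 (0.29, adjusted p = 0.000107), without overlap between these groups.

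Ei24 and Pidd1 rose less. Ei24, an endoplasmic reticulum protein gene induced by p53, had 105 and 106 CPM with DRIL18, 111 and 95.9 CPM with IL12 and 147 and 145 CPM in the mixture, against 87.5 and 93.1 CPM in Mock and 87.8 and 87.4 CPM in NoEp. Its mixture libraries were clear of all others (0.69 ± 0.05 SE, adjusted p = 1.31e-13). The rise with DRIL18 was 0.23, and the rise with IL12 (0.19, adjusted p = 0.00212) was lost without IL12 replicate 1 (0.09, adjusted p = 0.183) or without Mock replicate 1 (0.15, adjusted p = 0.0667) and was 0.30 without IL12 replicate 2. Pidd1, which assembles the complex that activates caspase-2, had 81.9 and 79.99 CPM with DRIL18, 74.9 and 70.7 CPM with IL12 and 106 and 112 CPM in the mixture, against 73.3 and 74.4 CPM in Mock and 67 and 68 CPM in NoEp. The mixture was higher than Mock by 0.56 ± 0.046 SE, adjusted p = 3e-12, and IL12 overlapped Mock. The small rise with DRIL18 (0.13, adjusted p = 0.0362) was lost without either DRIL18 library or either Mock library, with adjusted p between 0.0937 and 0.214, and with DESeq2 (0.13, adjusted p = 0.0899) or no filter on low counts (0.13, adjusted p = 0.0563). Apaf1, the core of the apoptosome, rose by 0.41, adjusted p = 3.54e-09, in the mixture and by 0.17, adjusted p = 0.00347, with IL12, a call lost without Mock replicate 2 (0.14, adjusted p = 0.0715).

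Trp53inp1 was the exception in direction among the death genes. Its product is a nuclear p53 cofactor, and it had 257 and 264 CPM with DRIL18, 229 and 209 CPM with IL12 and 173 and 162 CPM in the mixture, against 274 and 273 CPM in Mock and 306 and 316 CPM in NoEp. The mixture libraries were lowest (-0.71 ± 0.042 SE, adjusted p = 1.57e-15), IL12 lay between them and Mock (-0.32, adjusted p = 1.35e-07), and DRIL18 differed from Mock by -0.07, adjusted p = 0.243.

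Among the remaining targets, Zmat3 and Sesn1 moved in opposite directions. Zmat3 (ENSMUSG00000027663), an RNA-binding zinc finger protein gene activated by p53, had 81 and 82.1 CPM with DRIL18, 96.3 and 85.4 CPM with IL12 and 189 and 194 CPM in the mixture, against 55.1 and 56 CPM in Mock and 53.9 and 52.1 CPM in NoEp. The 3 cytokine arms were above Mock without overlap, at 1.79 ± 0.049 SE, adjusted p = 3.92e-24, in the mixture, 0.71, adjusted p = 4.15e-13, with IL12 and 0.55, adjusted p = 6.43e-10, with DRIL18. Sesn1 (ENSMUSG00000038332), a sestrin that restrains the growth kinase mTORC1, had 78.8 and 78.5 CPM with DRIL18, 67.2 and 66.2 CPM with IL12 and 29.9 and 29.7 CPM in the mixture, against 87.6 and 83.6 CPM in Mock and 104 and 102 CPM in NoEp. The mixture libraries were 2.87-fold lower than Mock (-1.52 ± 0.05 SE, adjusted p = 4.66e-22) and far below both single arms. IL12 was also lower (-0.36, adjusted p = 1.18e-07). The DRIL18 difference (-0.12, adjusted p = 0.0482) was lost without either library of DRIL18, the mixture, Mock or NoEp, with adjusted p between 0.0504 and 0.34. It was also lost with the mark bis as a covariate (-0.12, adjusted p = 0.129), with DESeq2 (-0.13, adjusted p = 0.0887) and with no filter on low counts (-0.12, adjusted p = 0.11). Dcxr, a carbonyl reductase gene of sugar metabolism, had 7.1 and 6.96 CPM with DRIL18, 4.8 and 4.53 CPM with IL12 and 10.3 and 11.7 CPM in the mixture, against 4.64 and 5.21 CPM in Mock and 5.93 and 5.59 CPM in NoEp. Its mixture libraries were highest (1.16 ± 0.13 SE, adjusted p = 1.58e-09), IL12 overlapped Mock, and the DRIL18 call (0.51, adjusted p = 0.00375) was lost without Mock replicate 1 (0.43, adjusted p = 0.0727). Rap2b, a small GTPase gene, was lower with IL12 alone (-0.22, adjusted p = 0.0163), a call lost without IL12 replicate 2 (-0.18, adjusted p = 0.125) or without Mock replicate 2 (-0.15, adjusted p = 0.222), and with DESeq2 (-0.22, adjusted p = 0.0675). Exons of Rap2b share 54.5% of their bases with an annotated gene on the other strand, B430305J03Rik, which had no counts.

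Of 5 DNA repair members, Polk and Ercc5 were higher in the mixture than in Mock, Ddb2 and Xpc lower, and Rrm2b did not pass (0.087, adjusted p = 0.386). Higher and lower were 40% each, against 32% and 31.9% of all tested genes. Ddb2 (ENSMUSG00000002109) and Xpc encode proteins that find ultraviolet damage for nucleotide excision repair. Ddb2 had 44.2 and 40.9 CPM with DRIL18, 39.4 and 37.2 CPM with IL12 and 21.9 and 22.1 CPM in the mixture, against 48.8 and 47.2 CPM in Mock and 48.7 and 51.3 CPM in NoEp. The mixture pair lay far below Mock (-1.12 ± 0.063 SE, adjusted p = 3.15e-16), and IL12 was also lower (-0.33, adjusted p = 3.29e-05). The DRIL18 call (-0.17, adjusted p = 0.0265) was lost without DRIL18 replicate 2 (-0.12, adjusted p = 0.289), without Mock replicate 1 (-0.15, adjusted p = 0.183) or without Mock replicate 2 (-0.20, adjusted p = 0.0707), and also with the mark bis as a covariate (-0.13, adjusted p = 0.164) and with DESeq2 (-0.18, adjusted p = 0.0656). Ddb2 shares 23.8% of its exon bases with Acp2 on the other strand, and the labels do not say whether reads were counted by strand. Acp2 itself differed by 0.039 (adjusted p = 0.733) between the mixture and Mock. With IL12 Acp2 was lower than Mock by a similar amount to Ddb2 (-0.34, adjusted p = 0.00416), and with DRIL18 it did not pass (-0.14, adjusted p = 0.326). Whether shared reads enter the Ddb2 value with IL12 was not tested. Xpc had 28.4 and 30.5 CPM with DRIL18, 23 and 24.3 CPM with IL12 and 17.5 and 19.2 CPM in the mixture, against 31.6 and 31.7 CPM in Mock and 34.7 and 34.3 CPM in NoEp. Mixture libraries were lowest (-0.79 ± 0.071 SE, adjusted p = 3.05e-11) and IL12 next (-0.42, adjusted p = 8.06e-06), while DRIL18 did not pass (-0.10, adjusted p = 0.296).

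Ercc5, the endonuclease gene of the same repair route, had 31.4 and 32.2 CPM with DRIL18, 32 and 31.9 CPM with IL12 and 49.1 and 48.3 CPM in the mixture, against 29.5 and 29.3 CPM in Mock and 33.7 and 34.6 CPM in NoEp. It is the 1 member higher in the mixture (0.73 ± 0.058 SE, adjusted p = 1.74e-12) that passed in neither single arm (0.11, adjusted p = 0.185, for DRIL18 and 0.12, adjusted p = 0.113, for IL12). Polk, a DNA polymerase gene of translesion synthesis, had 37.9 and 38.2 CPM with DRIL18, 34.9 and 36.1 CPM with IL12 and 64.5 and 65.3 CPM in the mixture, against 33.8 and 32.9 CPM in Mock and 30.9 and 32.3 CPM in NoEp. Its mixture libraries stood apart from the other 8 (0.96 ± 0.055 SE, adjusted p = 6.54e-16). The rise with DRIL18 (0.19, adjusted p = 0.0146) was lost without either DRIL18 or either Mock library, with adjusted p between 0.0529 and 0.115, and with the mark bis as a covariate (0.17, adjusted p = 0.0515). The value with IL12 was 0.09, adjusted p = 0.222.

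Chek2 (ENSMUSG00000029521), the gene of CHK2, had 22 and 22.2 CPM with DRIL18, 13.5 and 13.5 CPM with IL12 and 12.4 and 12.7 CPM in the mixture, against 22.7 and 23.6 CPM in Mock and 21.3 and 24.6 CPM in NoEp. IL12 and mixture libraries lay close together and below all others, at -0.89 ± 0.084 SE, adjusted p = 8.41e-11, in the mixture and -0.78, adjusted p = 4.04e-09, with IL12, while DRIL18 differed from Mock by -0.069, adjusted p = 0.593. Atm (ENSMUSG00000034218), the gene of the kinase that responds to double-strand breaks, had 119 and 119 CPM with DRIL18, 84.7 and 97.2 CPM with IL12 and 74.2 and 73.5 CPM in the mixture, against 116 and 118 CPM in Mock and 108 and 118 CPM in NoEp. The mixture was lowest (-0.66 ± 0.052 SE, adjusted p = 1.24e-12), IL12 was lower than Mock (-0.36, adjusted p = 7.28e-07) and DRIL18 was not (0.025, adjusted p = 0.788). Chek1, the gene of CHK1, did not pass in any cytokine arm against Mock, with 0.0054, adjusted p = 0.943, in the mixture.

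Trp53bp1 and Atr were lower with IL12 and higher in the mixture. Trp53bp1, the gene of the break-binding protein 53BP1, had 52.1 and 50.3 CPM with DRIL18, 40.1 and 39.5 CPM with IL12 and 60.4 and 59.1 CPM in the mixture, against 51.1 and 50.4 CPM in Mock and 47.5 and 49.5 CPM in NoEp. The IL12 pair was below Mock (-0.35, adjusted p = 2.72e-06), DRIL18 overlapped Mock, and the mixture pair was above every other library (0.24 ± 0.052 SE, adjusted p = 0.00018). Tubgcp4, which lies on the other strand over 15.0% of the exon bases of Trp53bp1, differed from Mock by -0.012 (adjusted p = 0.861) in the mixture. With IL12 it differed by -0.081 (adjusted p = 0.253). Atr, the gene of the kinase that responds to stalled replication, differed from Mock by -0.16, adjusted p = 0.0243, with IL12 and 0.15, adjusted p = 0.0284, in the mixture. Both Atr calls depend on single libraries. The first was lost without IL12 replicate 1 (-0.044, adjusted p = 0.609), without Mock replicate 1 (-0.17, adjusted p = 0.0794) or without Mock replicate 2 (-0.15, adjusted p = 0.136), and with DESeq2 (-0.16, adjusted p = 0.0738), and was -0.29 without IL12 replicate 2. The second was lost without mixture replicate 1 (0.10, adjusted p = 0.22), without Mock replicate 1 (0.13, adjusted p = 0.132) or without Mock replicate 2 (0.16, adjusted p = 0.0704). It was also lost with the mark bis as a covariate (0.052, adjusted p = 0.621) and with DESeq2 (0.15, adjusted p = 0.0762).

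To ask whether the mixture differs from the sum of its parts, an interaction was tested: its effect against Mock on the log2 scale, minus the DRIL18 and IL12 effects added up. It was positive for 19 of 34 genes and negative for 5, against 14.6% and 17.1% of all tested genes, with a median of 0.26 over the 34 and -0.016 over all. Of the 22 genes higher in the mixture, 17 had a positive interaction. Both calls use the same mixture libraries, and the share among all tested genes higher in the mixture was not counted. Plk2 (1.22, adjusted p = 0.000188), Tnfrsf10b (1.12, adjusted p = 2.62e-08), Plk3 (1.10, adjusted p = 1.87e-07) and Cdkn1a (1.00, adjusted p = 1.03e-10) exceeded the sum most. Mdm2 exceeded it by 0.65, Phlda3 by 0.70, Dcxr by 0.72 and Polk by 0.68. The other positive interactions among genes higher in the mixture lay between 0.26 for Trp53 and 0.57 for Trp53bp1. That of Ei24 (0.27, adjusted p = 0.0034) was lost without IL12 replicate 2 (0.17, adjusted p = 0.0518). For Fas, Perp, Eda2r, Apaf1 and Atr the mixture did not pass as different from the sum. Fas had a sum of 1.16 against 1.14 measured, an interaction of -0.022 ± 0.10 SE.

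For genes lower in the mixture, the share with a negative interaction was likewise not counted over all tested genes, and the same mixture libraries enter both calls. Of the 9 members lower in the mixture, 5 fell further than the sum of the singles. Sesn1 had the largest such shortfall, with a sum of -0.48 and a measured value of -1.52 (interaction -1.04 ± 0.069 SE, adjusted p = 1.31e-13), followed by Ddb2 (-0.62, adjusted p = 9.86e-07), Atm (-0.33, adjusted p = 0.000779) and Trp53inp1 (-0.32, adjusted p = 9.57e-05). Xpc was at the threshold (-0.26, adjusted p = 0.0446). Its call was lost without DRIL18 replicate 2, IL12 replicate 2, mixture replicate 1 or either library of Mock or NoEp, with adjusted p between 0.0521 and 0.228. It was also lost with DESeq2 (-0.26, adjusted p = 0.135), RLE scaling (-0.25, adjusted p = 0.0541) and no filter on low counts (-0.27, adjusted p = 0.0738). Chek2 (-0.041 ± 0.12 SE) and Ckap2 (-0.023 ± 0.069 SE) did not pass. Btg2, which IL12 alone lowered as far as the mixture did, had a positive interaction (0.25, adjusted p = 0.00912) that was lost without IL12 replicate 2 (0.16, adjusted p = 0.123). That of Rrm2b (0.33, adjusted p = 0.0391) was lost without DRIL18 replicate 2 (0.17, adjusted p = 0.33), without IL12 replicate 1 (0.29, adjusted p = 0.0999), without mixture replicate 2 (0.28, adjusted p = 0.145), without Mock replicate 1 (0.34, adjusted p = 0.0772) or without Mock replicate 2 (0.31, adjusted p = 0.12), and with DESeq2 (0.34, adjusted p = 0.0996), and was 0.51 without DRIL18 replicate 1.

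**Figure D3:**
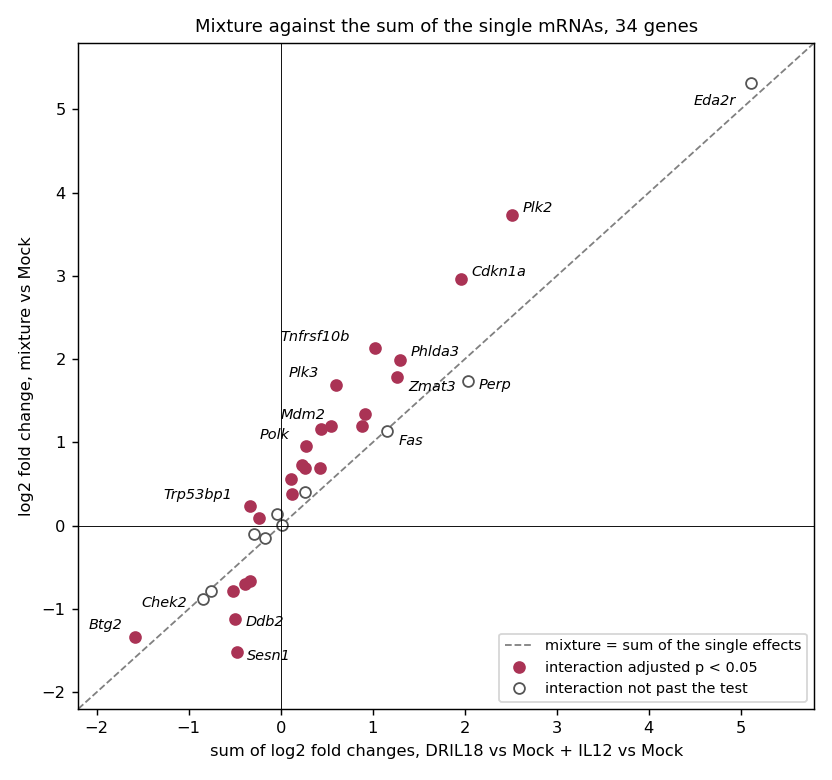
Each point is 1 of the 34 genes, with its measured log2 fold change between the mixture and Mock (y axis) and the single-mRNA log2 fold changes, DRIL18 and IL12 each against Mock, added up (x axis); filled points passed the interaction test. Filled points above the dashed line are the 19 positive interactions and those below it the 5 negative ones.

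Set against each single mRNA, the mixture had 22 members higher and 6 lower than IL12, against 25.8% and 26.3% of all tested genes. Compared with DRIL18 it had 22 higher and 9 lower, against 28.3% and 29% of all tested genes. Higher than both singles were 21 genes, which are the 22 higher than Mock without Atr, and Atr differed from DRIL18 by 0.028, adjusted p = 0.704. The shares of all tested genes above both singles, or below both, were not counted. Cdkn1a was 3.33-fold above IL12 and 4.68-fold above DRIL18, and Mdm2 1.87-fold and 1.93-fold. Ckap2, Trp53inp1, Sesn1, Ddb2, Xpc and Atm were lower than in both singles. Btg2 (0.0036, adjusted p = 0.965) and Chek2 (-0.11, adjusted p = 0.329) did not pass between the mixture and IL12, although both were lower in the mixture than with DRIL18 (-1.09 and -0.82). Perp was higher than with IL12 by 0.62, adjusted p = 0.00494, a call lost without mixture replicate 2 (0.55, adjusted p = 0.0509). Atr was higher than with IL12 by 0.31, adjusted p = 4.52e-05, and by 0.19 without IL12 replicate 1. The Atm difference from IL12 was -0.30, and -0.20 without IL12 replicate 2. Calls of Mdm4 and Rrm2b against DRIL18 also rested on single libraries. Mdm4 (-0.13, adjusted p = 0.00838) was lost without DRIL18 replicate 1 (-0.10, adjusted p = 0.107). Rrm2b (0.23, adjusted p = 0.025) was lost without DRIL18 replicate 2 (0.071, adjusted p = 0.555) or without mixture replicate 2 (0.18, adjusted p = 0.173), and with DESeq2 (0.24, adjusted p = 0.0712), and was 0.41 without DRIL18 replicate 1.

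The comparison of Mock with NoEp measures electroporation together with whatever Mock received and any difference in the time of lysis. That time was not recorded here for NoEp, and its part was not tested. Of the 34 genes, 7 (20.6%) changed, against 6.98% of all tested genes. Higher in Mock were 2 (5.88%) and lower 5 (14.7%), against 3.34% and 3.64% of all tested genes. The mark bis is on both NoEp libraries and on neither Mock library. With the mark as a covariate, edgeR called 0 members higher (1 at unadjusted p under 0.05) and 2 lower, and 172 of all genes changed, where 1102 did without it. Without Mock replicate 1, Mock replicate 2 or NoEp replicate 2, edgeR called 0 higher (3 each at unadjusted p under 0.05) and 2 lower, and without either DRIL18 library or NoEp replicate 1 it called 1 higher. Btg2 (-0.35 ± 0.047 SE, adjusted p = 2.04e-05) and Sesn1 (-0.27 ± 0.045 SE, adjusted p = 0.000306) were lower in Mock than in NoEp. The other 5 calls were lost when single libraries were left out, and all 5 were lost with the mark bis as a covariate. Cdkn1a (0.23, adjusted p = 0.043) was lost without either DRIL18 library, either Mock library or NoEp replicate 2, with adjusted p between 0.0534 and 0.573, and was 0.34 without NoEp replicate 1. Chek1 (0.20, adjusted p = 0.0321) and Ercc5 (-0.22, adjusted p = 0.0236) were each lost without any 1 library of either group, with adjusted p between 0.0624 and 0.269 for Chek1 and between 0.0712 and 0.201 for Ercc5. With the mark, Cdkn1a was at 0.11, adjusted p = 0.683, Chek1 at 0.081, adjusted p = 0.743 and Ercc5 at -0.20, adjusted p = 0.29. DESeq2 also lost these 3, with 0.23, adjusted p = 0.287, for Cdkn1a, 0.21, adjusted p = 0.0609, for Chek1 and -0.21, adjusted p = 0.0649, for Ercc5. Mdm4 (-0.14, adjusted p = 0.0306) was lost without DRIL18 replicate 1 (-0.14, adjusted p = 0.051), without Mock replicate 1 (-0.14, adjusted p = 0.217), without Mock replicate 2 (-0.14, adjusted p = 0.185) or without NoEp replicate 2 (-0.078, adjusted p = 0.501), and was -0.12, adjusted p = 0.391, with the mark. Trp53inp1 (-0.19, adjusted p = 0.00472) was lost without Mock replicate 1 (-0.18, adjusted p = 0.082), without Mock replicate 2 (-0.18, adjusted p = 0.0784) or without NoEp replicate 2 (-0.16, adjusted p = 0.0904), and was -0.23, adjusted p = 0.0502, with the mark. Plk3 was at 0.30 without passing (adjusted p = 0.108).

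Other genes of the pathway were counted from 5 lists that share no gene with the 34. These lists were chosen with earlier results of these data known, so their shares are descriptive and no independent test. Among 24 tested p53 targets of 25 listed, 17 (70.8%) were higher and 5 (20.8%) lower in the mixture than in Mock, against 32% and 31.9% of all tested genes, with a median of 0.64. The largest rises past 5 CPM were in Sulf2, a heparan sulfate endosulfatase gene (3.47, adjusted p = 9.24e-15, and 4.16 without Mock replicate 1), Ak1, an adenylate kinase gene (3.36, adjusted p = 1.84e-14), and the tetraspanin gene Cd82 (1.40, adjusted p = 6.07e-23). Sulf2 was higher with IL12 (14.5 and 13.8 CPM) than in the mixture (7.09 and 6.82 CPM), unlike Ak1 and Cd82. With IL12 Cd82 had 97.1 and 88.8 CPM, below the 137 and 127 CPM in Mock. Pml (-0.50, adjusted p = 4.93e-11), Ephx1 (-0.45, adjusted p = 0.00123) and the peptide transporter gene Tap1 (-0.27, adjusted p = 2.58e-08) fell. With DRIL18 14 of these 24 (58.3%) were higher and 1 (4.17%) lower, against 12.2% and 12.1% of all tested genes. With IL12 8 (33.3%) were higher and 4 (16.7%) lower, against 23% and 23.6%.

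Of the 14 tested p53 regulators, 5 (35.7%) were higher and 7 (50%) lower in the mixture, against 32% and 31.9% of all tested genes, with a median of -0.10. Highest were Ppp1r13l (1.28, adjusted p = 2.35e-08), which encodes the p53 inhibitor iASPP, and Cdkn2a (0.99, adjusted p = 5e-07), the locus of p16 and of the Mdm2 inhibitor p19Arf, whose transcripts are not told apart in gene counts. Lowest were the acetyltransferase gene Crebbp (-0.69, adjusted p = 1.78e-12), Ppp1r13b (-0.50, adjusted p = 1.2e-08), which encodes the p53 activator ASPP1, and the deacetylase gene Sirt1 (-0.39, adjusted p = 1.91e-07).

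Of 29 partners in break sensing and checkpoint signalling, 17 (58.6%) were lower and 6 (20.7%) higher in the mixture, against 31.9% and 32% of all tested genes, with a median of -0.25. The phosphatase gene Cdc25b, which promotes entry into mitosis, fell most (-1.63, adjusted p = 2.72e-23), followed by the histone gene H2afx (-0.90, adjusted p = 6.64e-16) and the DNA-dependent protein kinase gene Prkdc (-0.76, adjusted p = 3.06e-14). Cdc25a, which acts at entry into S phase, rose (0.89, adjusted p = 3.32e-16), as did Rad17 (0.51, adjusted p = 1.2e-08) and the fork protection gene Tipin (0.45, adjusted p = 1.13e-09). All 20 of 20 genes of G2 and mitosis were lower in the mixture, against 31.9% of all tested genes, with a median of -0.47. Cenpf (-1.03, adjusted p = 1.08e-17), Ccnb2 (-0.97, adjusted p = 1.07e-19) and the proliferation marker Mki67 (-0.90, adjusted p = 1.16e-18) fell most. With DRIL18 14 of these 20 (70%) were lower, against 12.1% of all tested genes, and with IL12 13 (65%), against 23.6%. In sum this list held 6784 to 6884 CPM with DRIL18, 6907 to 6981 CPM with IL12 and 5434 to 5494 CPM in the mixture, against 7863 to 7993 CPM in Mock and 7371 to 7742 CPM in NoEp. Gtse1, whose product acts in G2, was higher in the mixture while this list was lower.

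Of 29 other DNA repair genes, 12 (41.4%) were higher and 10 (34.5%) lower in the mixture, near the 32% and 31.9% of all tested genes, with a median of 0.036. The translesion genes Rev1 (0.85, adjusted p = 2.58e-11) and Rev3l (-0.44, adjusted p = 2.1e-09) moved in opposite directions, and Poli, a further translesion polymerase gene, was lower (-0.37, adjusted p = 4.15e-05). Xrcc4 (0.61, adjusted p = 1.15e-06), of end joining, and Rad23b (0.59, adjusted p = 3.59e-13), a partner of XPC in damage recognition, were higher, and the ligase gene Lig1 (-0.41, adjusted p = 2.25e-11) was lower.

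**Figure D4:**
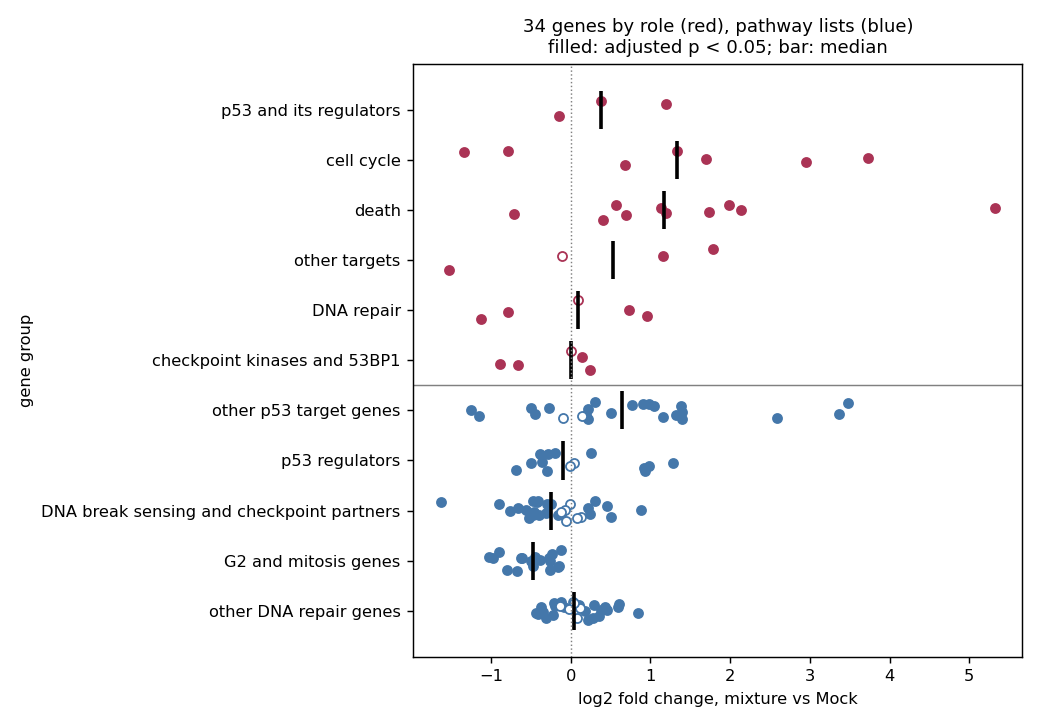
Each point is the log2 fold change of 1 gene between the mixture and Mock (x axis), for the 34 genes by role (upper 6 rows) and for 5 pathway lists (lower 5 rows); filled points passed the test and the bar is the median. The cell cycle and death rows have medians of 1.34 and 1.16, and all points of the G2 and mitosis row lie below 0.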

How the data were processed

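The data are bulk RNA sequencing of 10 libraries in 5 groups of 2. RNA was extracted with a Qiagen column kit and libraries were made with a stranded TruSeq mRNA kit, per the labels' protocols. The deposited counts are whole reads per gene, made with STAR 2.7.9 on mm39 and featureCounts, per the submitters' processing notes. The deposited log2 CPM values, which the authors made for 13225 genes, were used in 1 alternative. Annotation release, strand setting and the handling of reads with several alignments were not stated, and reads of overlapping genes could be assigned either way. Symbols came from GENCODE M21 by Ensembl identifier without its version (52083 matched, 3276 did not). Exon overlaps between genes were measured on M21 coordinates, which are of build GRCm38 and not the mm39 of the counts. Sequences are from RefSeq windows on GRCm38.p6.

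Counts were fitted in edgeR 4.0.16 (R 4.3.3, limma 3.58.1) with TMM scaling, filterByExpr and 5 group means, which leaves 5 residual degrees of freedom. Comparisons used its quasi-likelihood F test, and Benjamini-Hochberg adjustment ran over 15777 genes. The SE is the log2 fold change divided by the root of F. CPM are counts scaled to 1000000 per TMM-scaled library. The interval on a ratio of counts is exact and covers counting error only. Values per library are given for members with a called log2 fold change of at least 0.5 in size in any cytokine arm against Mock, and for Trp53. From each pathway list up to 3 called genes per direction with at least 5 CPM in the higher group are named. A gene that this rule selects is not reported here. The members and lists were chosen with earlier results of these data known. Alternatives were RLE scaling, DESeq2 1.42.0, limma-trend on the deposited log2 CPM, no filter on low counts, a replicate block, the mark bis as a covariate, and leaving out each library. The procedure was tested on simulated counts with known changes. Far fewer genes were changed there than differ here, and in a single group at a time, so it does not measure the error rate in these data.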

Additional observations from a re-analysis of the deposited data

Results flagged for a closer look

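The effect of IL-12 mRNA on Trp53bp1, the gene of the break-binding protein 53BP1, differed with the presence of DRIL18 mRNA. With both mRNAs against DRIL18 alone the log2 fold change was 0.22, and with IL12 against Mock it was -0.35, a difference of 0.57 by edgeR's interaction test (adjusted p = 3.05e-07). It is reported here because the test of the difference passed and each effect passed on its own with opposite signs.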

How the results depend on the processing

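Of 194 gene values tried under every alternative, 168 kept their direction and their side of the threshold, 26 lost the call in at least 1, and none reversed. By setting, leaving out Mock replicate 1 or Mock replicate 2 lost 16 each, leaving out any other library 3 to 8, DESeq2 13, the mark bis as a covariate 9, no filter on low counts 4, and RLE scaling, limma-trend and the replicate block 1 each. RLE scaling lost the Xpc interaction (-0.25, adjusted p = 0.0541). Replicate numbers did not pair the samples (correlations of same-numbered deviations -0.0318 to 0.0493 over 10 pairs of groups); with the replicate block Sesn1 lost its call for DRIL18 against Mock (-0.12, adjusted p = 0.0562), and the block changed no other call. Members higher in Mock than in NoEp numbered 2, but 0 with DESeq2 (4 at unadjusted p under 0.05) and 0 with the mark bis (1 at unadjusted p under 0.05). Members lower numbered 5, but 2 with the mark bis, and all changed genes 1102, but 172 with it. For DRIL18 against Mock, 4 members were lower, but 2 with DESeq2 and 2 with the mark bis; the cause was not tested. Leaving out 1 library, Mock against NoEp ranged over 0 to 2 members higher (0 by edgeR without Mock replicate 1, Mock replicate 2 or NoEp replicate 2, with 3 each at unadjusted p under 0.05), 2 to 5 lower and 242 to 1399 genes changed (242 without Mock replicate 1, 349 without Mock replicate 2, 350 without NoEp replicate 2). DRIL18 against Mock ranged over 12 to 17 higher, 2 to 4 lower (2 without DRIL18 replicate 2 or either Mock library) and 2525 to 4125 genes changed (2525 without Mock replicate 2). IL12 against Mock ranged over 12 to 14 higher, 10 to 12 lower and 6010 to 7334 genes changed, and the mixture against Mock over 21 to 22 higher, 9 lower and 9015 to 10319 genes changed. The interaction stayed at 18 to 19 members positive and 4 to 5 negative. The other scalings moved the median of all genes by less than 0.1 on the log2 scale. With 2 libraries a group, leaving out 1 assumes that the lone library varies like the other groups, and depth limits Eda2r most.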
